A study of Bos taurus with 11 samples.

Results

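The transcripts of 5 genes, PRSS3, LCN1, WFDC2, TMEM45A and HBD, were followed across the livers of 11 lactating cows, out of 21996 Ensembl genes with a count. All 5 were found in the counts by their identifiers and all 5 passed the filter of at least 5 reads in at least 1 cow, which left 13960 genes. They were selected on these same samples. Their names came from the study's own list of genes that differed between its groups, and they were picked from it because their reads were spread unevenly over the cows. Their levels by cow and by group are therefore given as a description, and any test output printed for them is a description too.

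The liver pieces came from Holstein-Friesian cows at about 14 days after calving, a stage at which milk output commonly exceeds energy intake. The 5 cows in mild negative energy balance (MNEB) had been fed silage without restriction and a set amount of concentrates, and milked once a day. The 6 cows in severe negative energy balance (SNEB) had received a restricted diet and had been milked more often. The cows of each group had been picked by the study for extreme energy balance, each gave 1 piece of liver, and the poly(A) RNA of each piece was sequenced as short single reads. Between 1774011 and 6852142 reads per cow were counted on genes. Levels are given as CPM (counts per 1e6 reads on genes) after TMM scaling of the library totals. The intervals are exact 95% Poisson intervals and cover counting error only.

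Liver RNA comes mostly from hepatocytes, but a piece of liver also holds bile ducts lined by epithelium, resident macrophages, connective tissue and blood. Secreted and surface proteins of epithelia, and globin made by immature red cells, are textbook examples of transcripts that hepatocytes make little of. In RNA from a whole piece of tissue, more cells of a type and more RNA per cell cannot be told apart.

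PRSS3 (ENSBTAG00000021565) is listed under the bovine name of anionic trypsin, a digestive protease of the exocrine pancreas. LCN1 (ENSBTAG00000009599) is a lipid-binding lipocalin secreted by tear and oral glands. WFDC2 (ENSBTAG00000013928) is a secreted protein with whey acidic protein domains, made by airway, glandular and reproductive tract epithelia. TMEM45A (ENSBTAG00000004459) is a transmembrane protein best known from the epidermis. HBD (ENSBTAG00000038748) carries the human name of delta globin, but its bovine name in the same list is that of the beta globin chain of adult hemoglobin. Trypsins and globins belong to families with close copies, and only reads with a single alignment were counted, so the counts of PRSS3 and HBD are uncertain in that respect.

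The liver of the cow MNEB2 had the highest level of all 5 transcripts. It shared PRSS3 with 1 other cow and LCN1 with another, whereas WFDC2, TMEM45A and HBD each stood far above every other cow. The unevenness therefore took 3 forms, presence in MNEB2 and MNEB3, presence in MNEB1 and MNEB2, and a high level in MNEB2 over a low level elsewhere. MNEB2 was the highest cow for 1860 of the 13960 genes, 13.3%. This share ranged over the cows from 4.97% in SNEB4 to 16.3% in MNEB3, so MNEB2 did not have the largest.

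**Figure D1:**
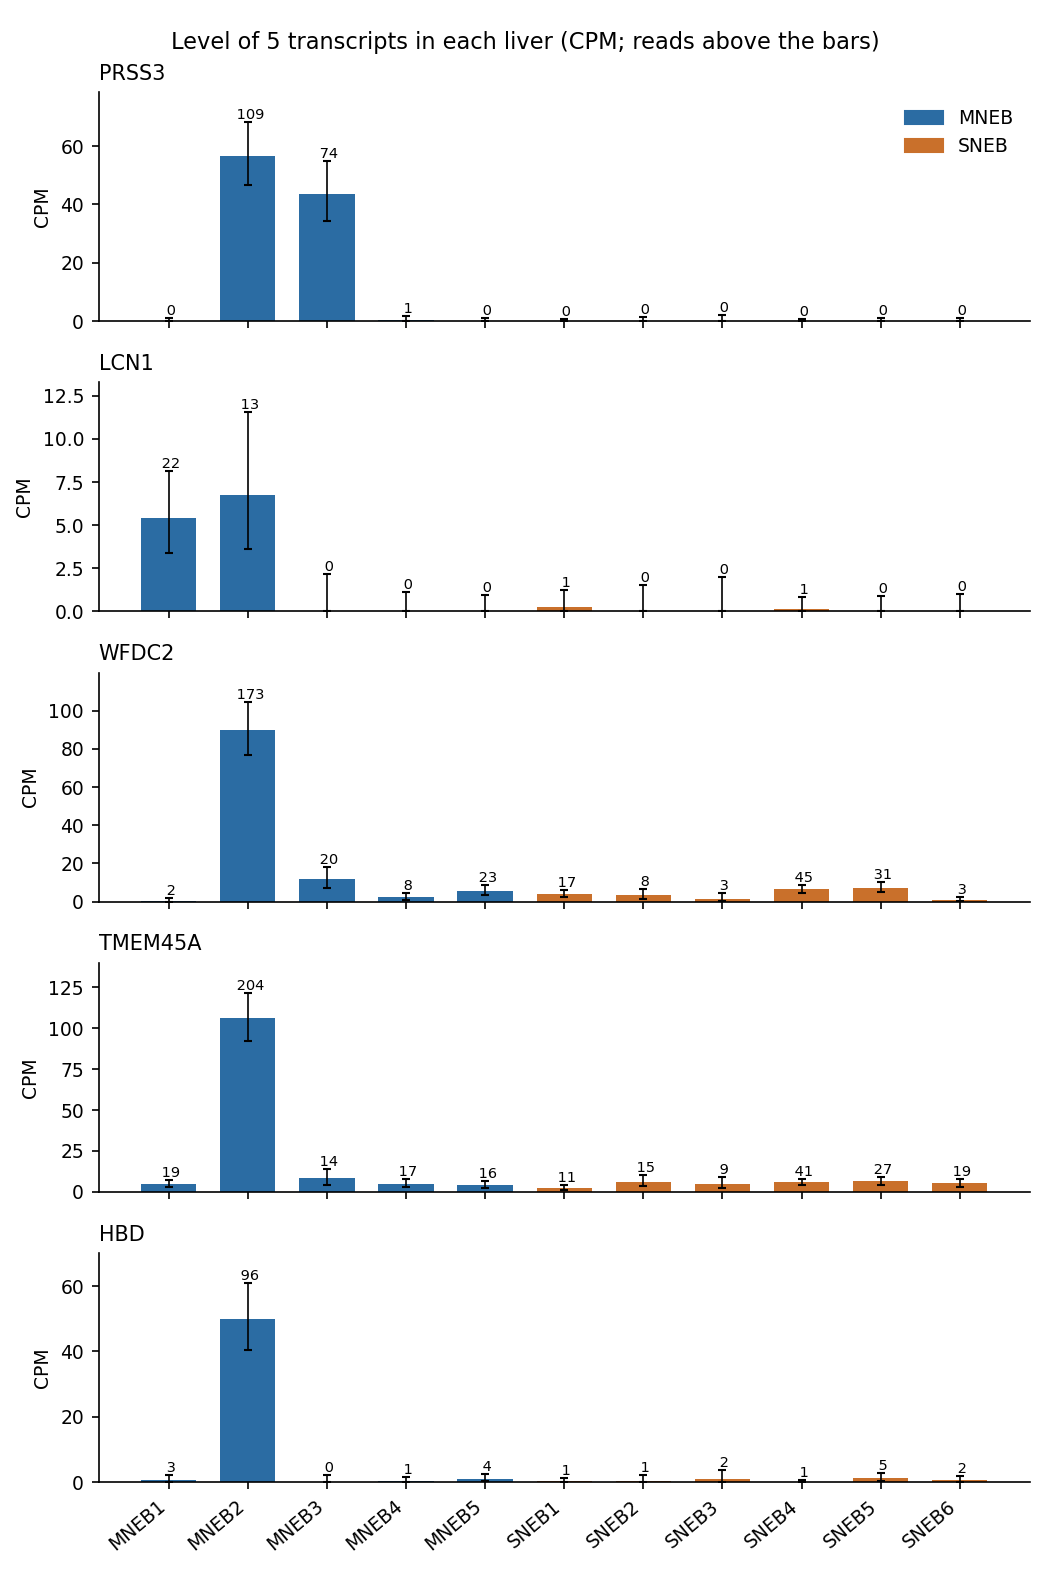
Level of each of the 5 transcripts in each of the 11 cows. The vertical axes are in CPM and differ between panels, the bars are MNEB (blue) and SNEB (orange) cows, the error bars are exact 95% Poisson intervals, and each bar carries its number of reads. MNEB2 is the tallest bar in every panel, with MNEB3 beside it for PRSS3 and MNEB1 for LCN1.

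PRSS3, the trypsin, was read in 3 of 11 cows. It had 109 reads in MNEB2, 74 in MNEB3 and 1 in MNEB4, and no read in MNEB1, in MNEB5 or in any of the 6 SNEB cows. Its level was 56.6 CPM (46.5 to 68.3) in MNEB2 and 43.7 CPM (34.4 to 54.9) in MNEB3. The intervals of these 2 cows overlapped, so their order was not resolved at this depth. In MNEB4 it was 0.298 CPM. With 3 reads taken as the floor, a count of 0 allows up to 0.433 CPM in SNEB4, the most deeply read cow at 0. In SNEB3, the least deeply read, it allows 1.61 CPM. The exact intervals of these cows are wider, with upper limits of 0.532 CPM in SNEB4 and 1.98 CPM in SNEB3. Over the SNEB group the floor was 0.128 CPM, and the lower limit of MNEB2 was 363 times that floor. The groups still overlapped, since MNEB1 and MNEB5 were at 0 as all SNEB cows were.

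LCN1, the lipocalin, was read in 4 cows and had few reads in all. MNEB1 had 22 reads, MNEB2 had 13, SNEB1 and SNEB4 had 1 each, and the other 7 cows had none. The levels were 5.39 CPM (3.38 to 8.17) in MNEB1 and 6.76 CPM (3.60 to 11.6) in MNEB2. These intervals overlapped widely, and the place of MNEB2 as the highest cow was within counting error. SNEB1 was at 0.227 CPM and SNEB4 at 0.144 CPM. The MNEB cows together held 35 reads and the SNEB cows 2, a ratio of 27.3 on the CPM scale with a counting interval of 7.02 to 234. That interval covers counting only, and 3 of the 5 MNEB cows had no read.

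WFDC2, the whey acidic protein family member, had at least 1 read in every cow and at least 5 reads in 8 of them. It was at 89.9 CPM (77.0 to 104) in MNEB2, from 173 reads. The other MNEB cows were at 0.490 CPM (MNEB1), 11.8 CPM (MNEB3), 2.39 CPM (MNEB4) and 5.81 CPM (MNEB5). MNEB2 stood clear of all others, since the interval of the next cow, MNEB3, ran from 7.22 to 18.3 CPM. The SNEB cows lay between 0.826 and 7.39 CPM with a median of 3.60 CPM, inside the range of the other MNEB cows. Among the 10 other cows the interval of each overlapped that of its neighbour in the order, but MNEB1 (0.0594 to 1.77 CPM) and MNEB3 at the ends did not overlap. The level in MNEB2 was 25.0 times the median of the 10 others.

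TMEM45A, the epidermal membrane protein, had the most even level outside MNEB2. It was read at least 5 times in all 11 cows. Its level was 106 CPM (92.0 to 122) in MNEB2, from 204 reads, and between 2.50 CPM in SNEB1 and 8.28 CPM in MNEB3 in the others. The other MNEB cows were at 4.66 CPM (MNEB1), 5.07 CPM (MNEB4) and 4.04 CPM (MNEB5). The SNEB cows had a median of 5.57 CPM and a highest value of 6.44 CPM, so the groups overlapped apart from MNEB2. MNEB2 was 20.6 times the median of the 10 others, 5.15 CPM.

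HBD, the globin, was close to absent outside MNEB2. It had 96 reads in MNEB2, 49.9 CPM (40.4 to 60.9), and between 0 and 5 reads in each other cow. MNEB1 was at 0.735 CPM, MNEB4 at 0.298 CPM, MNEB5 at 1.01 CPM, and MNEB3 had no read. The SNEB cows lay between 0.144 and 1.19 CPM with a median of 0.484 CPM. All of these values rest on at most 5 reads, and their order was not resolved. MNEB2 was 103 times the median of the other 10 cows.

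The share of each transcript held by its highest cow set this unevenness beside that of all genes. MNEB2 held 56.3% (48.7 to 63.6) of the summed CPM of PRSS3, 54.0% (35.4 to 70.5) of LCN1, 67.1% (62.1 to 71.8) of WFDC2, 66.6% (61.9 to 70.9) of TMEM45A and 89.8% (84.4 to 93.8) of HBD. The bounds are exact binomial ones carried to the CPM scale. The median gene had 13.1% in its highest cow. A share of 50% or more was found in all 5 transcripts and in 50 of 13960 genes, 0.358%. The transcripts were picked for this property, so nothing is read from that contrast. Of those 50 genes, 7 had MNEB2 as the highest cow, and these 7 include the 5 transcripts. MNEB1 had 8 and SNEB2 had 9, so MNEB2 was not the cow with the most such genes.

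The gap between the highest cow and the next separated the 5 transcripts into the forms described above. With 0.5 added to each CPM, the ratio was 1.29 for PRSS3, 1.23 for LCN1, 7.34 for WFDC2, 12.1 for TMEM45A and 29.8 for HBD. A ratio of at least 4 with at least 20 reads in the highest cow was met by 3 of the 5 transcripts and by 11 of 13960 genes, 0.0788%. HBD had the largest ratio of these 11 genes, TMEM45A the next and WFDC2 the fourth. These were the only genes of the 11 that were highest in MNEB2. The others included MEGF11 in SNEB5 (ratio 9.93), CPXM2 (7.31) and ECEL1 (7.07) in SNEB3, and SLC6A12 in SNEB6 (5.21), so single livers of both energy states carried such transcripts.

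**Figure D2:**
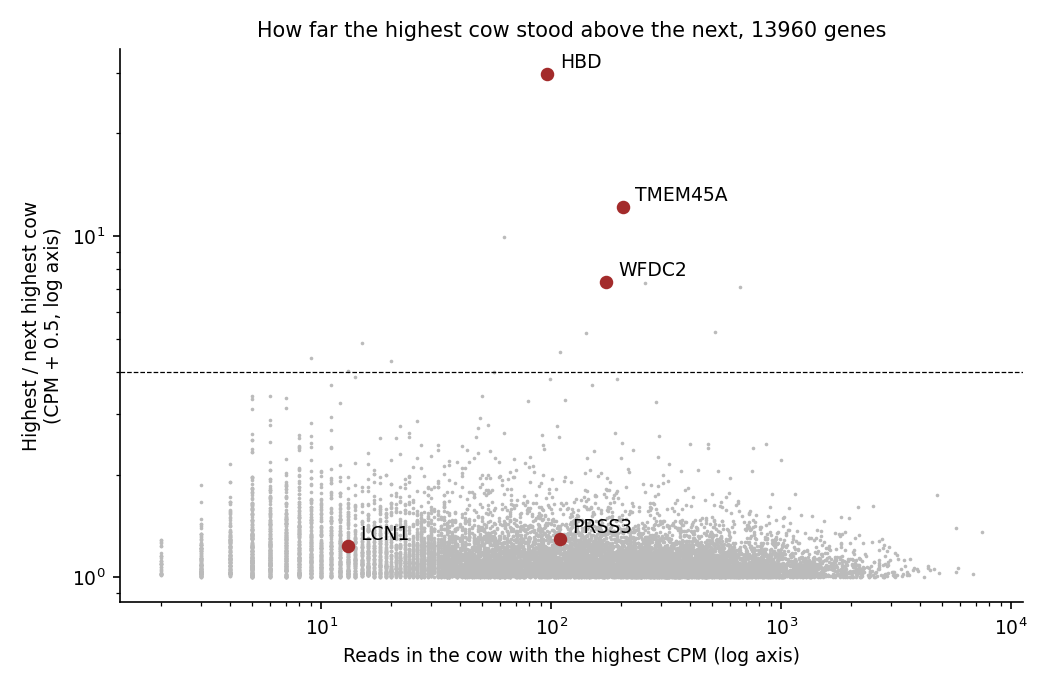
For each gene, the reads in the cow with the highest CPM (horizontal, log axis) and the ratio of that cow to the next highest (vertical, CPM + 0.5, log axis). Red points are the 5 transcripts, grey points the other genes, and the dashed line marks a ratio of 4. HBD, TMEM45A and WFDC2 lie above the line at 29.8, 12.1 and 7.34, and PRSS3 and LCN1, which 2 cows shared, lie among the bulk of genes.

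After these 3 transcripts, the next gene in MNEB2 was CCL24, a chemokine that attracts eosinophils. It had 192 reads and 99.8 CPM in MNEB2 against 25.7 CPM in the next cow, a ratio of 3.82. ENSBTAG00000010371 followed at 3.31 and ENSBTAG00000002705 at 3.26, both without a name in the list used. RBP2, a retinol-binding protein of the intestinal epithelium, had 24 reads and a ratio of 2.57. As a whole, the MNEB2 library lay near the low end of the cows in its likeness to the others. Its median correlation with the other libraries across genes was 0.955, in a range over all cows of 0.952 to 0.969. Only MNEB3 was lower (0.952), and SNEB3 was close (0.956). These 3 cows also had the fewest reads on genes, 1994076 in MNEB2, 1774011 in MNEB3 and 1869837 in SNEB3. The part of read depth in this order was not tested. A median taken across all genes cannot show a few transcripts that differ.

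The 2 transcripts shared by a pair of cows were the only ones of their kind in those pairs. Among genes with at least 10 reads in both cows of a pair, PRSS3 alone was at least 4-fold above every other cow in MNEB2 and MNEB3, at 55.4-fold with 0.5 added to each CPM, and the next gene in that pair, LOC522146, was at 1.87-fold. LCN1 alone passed in MNEB1 and MNEB2, at 8.11-fold on the same scale, where the next gene was at 1.71-fold. Of the 55 possible pairs of cows, 48 had no such gene and none had more than 1. The search over pairs was set up after the values of the 5 transcripts had been seen.

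Lanes and flow cells bear on these values because MNEB2 and MNEB3, like SNEB2 and SNEB3, were run on 1 lane each. MNEB2 was run on lane 2 of flow cell C, so its liver, its library and its lane cannot be told apart. The lanes on either side held MNEB1 and MNEB5. They had no read of PRSS3, 3 and 2 reads of HBD, 8 and 4 reads of TMEM45A, 0 and 9 reads of WFDC2, and 13 and 0 reads of LCN1. The lane of MNEB2 also had 13 reads of LCN1, the same number as its neighbour. MNEB3, the other cow with PRSS3, was run on flow cell B. LCN1 in MNEB1 was also read on flow cell B, with 9 reads. SNEB2 and SNEB3, the other cows with 1 lane, had no read of PRSS3 or LCN1.

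Markers of the tissues in which these genes are known to be used were then read in the same livers. Names were at hand only for genes in the study's list of differing genes, so few markers of each tissue had an identifier. Each marker read below was thus on a list chosen by the contrast of these same groups. Its levels in MNEB and SNEB cows restate that choice in part. Of 28 names on the pancreas list, 2 besides PRSS3 could be read. CTRC, a chymotrypsin made by pancreatic acinar cells, had 1 read in MNEB2 and 3 in MNEB3, the 2 cows with PRSS3, but 29 in SNEB1, which had none. RNASE1, the pancreatic ribonuclease that other tissues make as well, had 8 reads in MNEB2 and 12 in MNEB3. The summed level of both was 4.68 CPM in MNEB2, the tenth of 11 cows, and ranged from 2.98 to 31.6 CPM in MNEB and from 10.7 to 58.3 CPM in SNEB. The cows rich in PRSS3 were not rich in these 2 genes, but nothing about a source is read from this. Both genes had a name only through the list of differing genes, and both were higher in SNEB (log2 fold change 1.97 for CTRC and 1.16 for RNASE1). Low levels in MNEB cows therefore follow in part from that choice.

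Of 28 names on the duct epithelium list, 2 besides 2 of the 5 transcripts had an identifier. CDH1, the adhesion protein E-cadherin that hepatocytes also make, was at 199 CPM in MNEB2, the fourth of the 11 cows. PKHD1, the bile duct protein fibrocystin, was at 33.8 CPM in MNEB2, the sixth, against a median of 32.1 CPM in the others. Their sum was 233 CPM in MNEB2 and ranged from 233 to 294 CPM in MNEB and from 149 to 179 CPM in SNEB. Both could be read only because the study listed them as differing between these groups, so the gap between the groups restates that choice. No amount of duct epithelium is read from it. MNEB2 had the lowest sum of the MNEB cows. The keratins KRT7 and KRT19 and EPCAM, which define bile duct cells, were not analysed here. Of 21 gland and airway names, 3 besides 3 of the 5 transcripts could be read. SCGB1A1, a secretoglobin of airway epithelium, and GIF, the gastric intrinsic factor, had no read in MNEB2, and ATP4A, the gastric proton pump, was at 5.20 CPM. Their sum was lowest in MNEB2 of all 11 cows and ranged from 5.20 to 20.1 CPM in MNEB and from 12.6 to 42.8 CPM in SNEB. These 3 names too came from the list of differing genes. SCGB1A1 and ATP4A were higher in SNEB (log2 fold change 3.25 and 1.11) and GIF was lower (-3.55).

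For blood, 1 of 28 erythroid names besides HBD could be read. KEL, the Kell blood group protein, was at 60.8 CPM in MNEB2, the highest of the 11 cows, but MNEB5 was at 57.9 CPM with 229 reads. MNEB5 had only 4 reads of HBD. KEL ranged from 2.09 to 60.8 CPM in MNEB and from 4.18 to 22.7 CPM in SNEB. S100A12, a calcium-binding protein of neutrophils and the only 1 of 18 leukocyte names with an identifier, was at 36.9 CPM in MNEB2, the fifth cow. It ranged from 10.8 to 36.9 CPM in MNEB and from 21.2 to 65.5 CPM in SNEB. No platelet name of 9 and no hepatocyte name of 14 had an identifier, so the label of the tissue itself was not checked.

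MARCO and TIMD4, 2 of 12 names for resident macrophages and endothelium, gave a sum that was highest in MNEB2. MARCO, a scavenger receptor of liver macrophages, was at 224 CPM in MNEB2 and at most 178 CPM elsewhere. TIMD4, a receptor for dying cells, was at 53.0 CPM, the fifth cow. Their sum was 277 CPM in MNEB2 and ranged from 125 to 277 CPM in MNEB and from 75.6 to 255 CPM in SNEB. Of 11 stromal names 2 could be read. CNN1, a smooth muscle protein, was at 26.0 CPM in MNEB2, the ninth cow, and PI16, a fibroblast protein, at 9.87 CPM, the second. Their sum ranged from 18.8 to 48.8 CPM in MNEB and from 34.6 to 73.1 CPM in SNEB, with 35.9 CPM in MNEB2. The part of these cell types in the levels of the 5 transcripts was not tested.

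**Figure D3:**
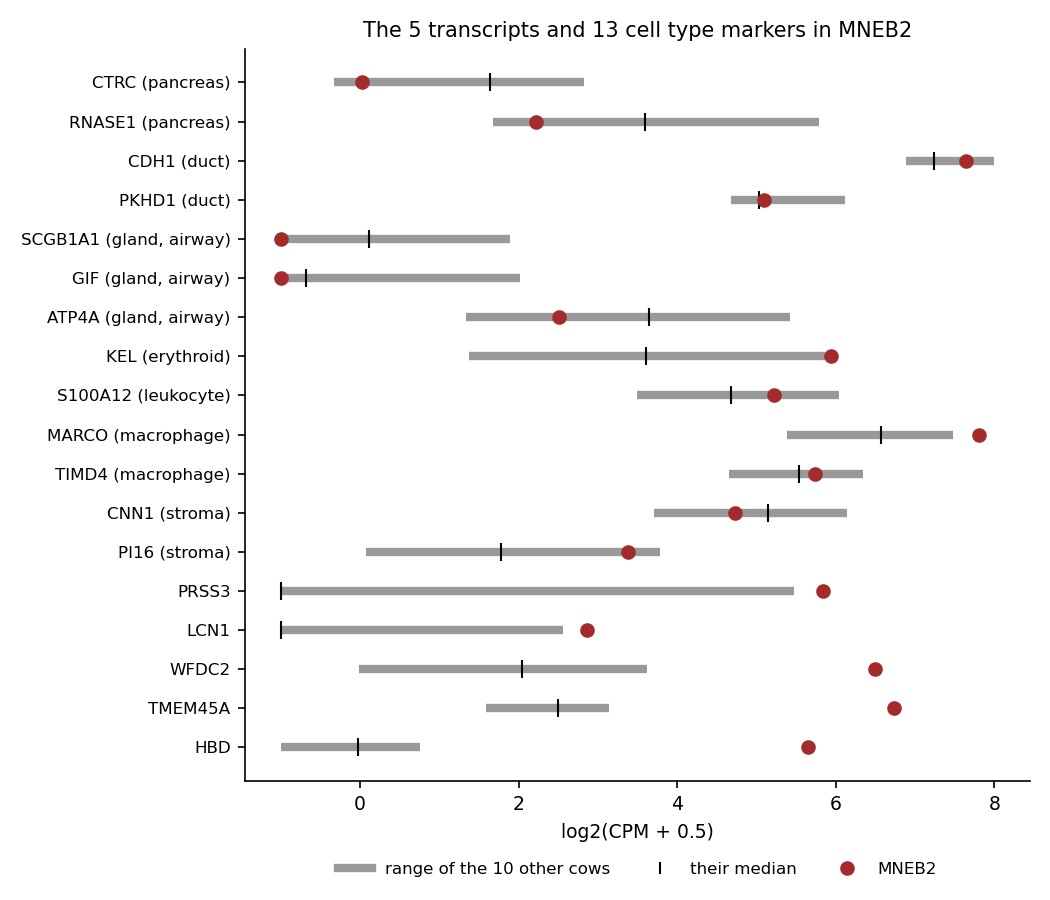
Level in MNEB2 (red points) of 13 marker genes and of the 5 transcripts, beside the range (grey bars) and median (black ticks) of the 10 other cows, as log2(CPM + 0.5). The 5 transcripts, KEL and MARCO lie above the range of the other cows, by little for KEL (60.8 against 57.9 CPM), MARCO (224 against 178 CPM), PRSS3 and LCN1, and the other 11 markers lie within it.

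Across the 11 cows, TMEM45A and HBD were the pair among the 5 transcripts with the most similar pattern (Pearson r = 0.90 of log2 CPM). HBD ranked first among 13290 genes for likeness to TMEM45A, and TMEM45A ranked second for HBD. This likeness rested on MNEB2. The rank correlation was 0.10, and r was -0.18 over the 10 other cows. WFDC2 and TMEM45A had r = 0.81 with a rank correlation of 0.63, and r = 0.34 without MNEB2. PRSS3 had r = 0.78 with TMEM45A and r = 0.77 with WFDC2, and without MNEB2 these were 0.55 and 0.51. MNEB3 was the second highest cow for these 3 transcripts. PRSS3 and LCN1 had r = 0.41, and r = -0.15 without MNEB2. The points share library depth, and no probability is attached to these values.

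The genes most like each transcript were otherwise ones without a name. With 5 genes taken for each, 23 of 25 places went to 22 genes outside the set, none of them named, with r between 0.83 and 0.92. Most like PRSS3 was ENSBTAG00000005807 (r = 0.92), at 155 CPM in MNEB2 and 150 CPM in the next cow. Most like HBD was ENSBTAG00000003692 (r = 0.91), at 298 CPM in MNEB2 and 189 CPM in the next. The level of these 22 genes in MNEB2 was between 0.675 and 2.19 times that of the highest other cow, so none of them had a gap of the size seen for WFDC2, TMEM45A or HBD.

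Set by energy state, all 5 transcripts had a higher mean in MNEB than in SNEB, and for 3 of them the cow MNEB2 made up that difference. The mean of WFDC2 was 22.1 ± 38.2 CPM (SD, n = 5) in MNEB and 3.92 ± 2.60 CPM (SD, n = 6) in SNEB, and without MNEB2 the MNEB mean was 5.13 ± 4.98 CPM (SD, n = 4). TMEM45A had 25.6 ± 45.0 CPM in MNEB and 5.19 ± 1.46 CPM in SNEB, with 5.51 ± 1.89 CPM in MNEB without that cow. HBD had 10.4 ± 22.1 CPM and 0.601 ± 0.437 CPM, with 0.511 ± 0.450 CPM without it. In each of the 3 the SD of the MNEB cows exceeded their mean, as it did for PRSS3 and LCN1.

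The fitted log2 fold changes, SNEB minus MNEB, moved in the same way. Each SE given for an edgeR fold change is approximate. It was worked back from the F statistic of the edgeR test described below, as the fold change over the square root of F. The fold change of WFDC2 was -2.32 (SE 0.93) over all cows and -0.16 (SE 0.68) without MNEB2. For TMEM45A the values were -2.24 (SE 0.80) and -0.03 (SE 0.31), and for HBD -4.08 (SE 1.32) and -0.13 (SE 0.71). Leaving out any other single cow kept these 3 values at or below -2.08. PRSS3 and LCN1 behaved otherwise, since a second MNEB cow carried each. The PRSS3 mean was 20.1 ± 27.8 CPM in MNEB, and without MNEB2 it was 11.0 ± 21.8 CPM, while all SNEB cows stayed at 0. LCN1 had 2.43 ± 3.36 CPM in MNEB and 0.0619 ± 0.0994 CPM in SNEB, and a log2 fold change of -4.34 (SE 1.28) that was -3.75 (SE 1.33) without MNEB2.

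**Figure D4:**
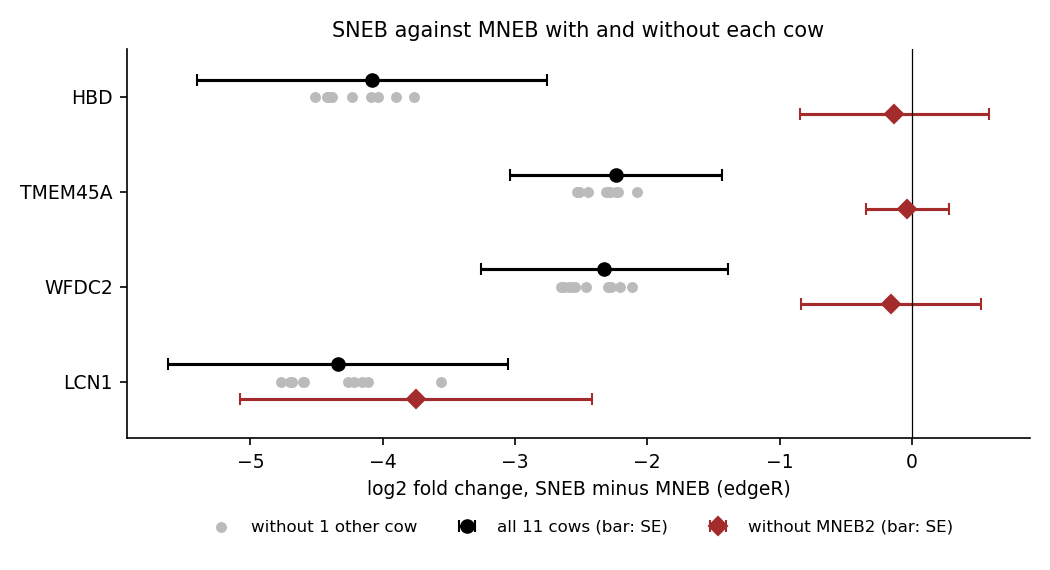
Fitted log2 fold change, SNEB minus MNEB, of the 4 transcripts with reads in both groups. Black points are the fit to all 11 cows and red diamonds the fit without MNEB2, and grey points are fits without 1 other cow. The bars are 1 approximate SE, worked back from the F statistic of edgeR. WFDC2, TMEM45A and HBD move to -0.16, -0.03 and -0.13 without MNEB2, and LCN1 stays at -3.75.

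Over all 13960 genes, the quasi-likelihood test of edgeR, with p-values adjusted by Benjamini and Hochberg, called 76 genes at an adjusted p under 0.1, of which 30 were lower in SNEB, 0.215% of the genes tested. None of the 5 transcripts was among the called genes (0 of 5). At an unadjusted p under 0.05 in edgeR, 5 of 5 passed, as did 8.35% of all genes. Without MNEB2, 2 of 5 passed, as did 8.73% of all genes. DESeq2 called 290 genes over all (2.08%) and 0 of the 3 transcripts to which it gave a p. Cows 1 to 5 of both groups had been run on the same flow cells number by number. With that number as a block, and SNEB6 left out for want of a partner, edgeR called 0.596% of genes, PRSS3 among them (adjusted p = 0.0576). At an unadjusted p under 0.05 in that edgeR fit, 2 of 5 passed, as did 9.63% of all genes. The log2 fold change of WFDC2 was -0.65 there. DESeq2 set aside the p of TMEM45A and HBD because a single cow dominated the fit, with a Cook's distance of 25.6 and 25.1 against a limit of 8.02, as it did for 8 of 13960 genes (0.0573%). Since the transcripts were chosen on this contrast, these counts are given as a description. Of the 13 marker genes tested, edgeR called CDH1 alone, which was lower in SNEB (log2 fold change -0.69, SE 0.11, adjusted p = 0.0120). CDH1 also owes its name to the list chosen on these samples, so this is no independent evidence.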

How the data were processed

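Liver poly(A) RNA of 11 cows was sequenced on 19 lanes of 3 flow cells. Per the study's methods, the authors mapped every lane on its own to BCM4 with Bowtie, discarded reads that aligned at more than 1 place, and retained a single read for each mapping position. The deposited values are raw counts per Ensembl gene and lane from HTSeq-count in union mode. Retaining a single read for each position caps the counts of highly expressed genes. The strand setting is not given in the sources used here.

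Lanes were summed per cow, and groups were taken from the sample titles. A gene entered the test if any cow had 5 reads of it or more. The test was that of edgeR 4.0.16 (R 4.3.3, TMM, quasi-likelihood, Benjamini-Hochberg, adjusted p under 0.1), with DESeq2 1.42.0 as an alternative. Intervals are exact at 95%, and a count of 0 was given a floor of 3 reads. Likeness was Pearson's r of log2 CPM (prior count 2) over genes with a mean of at least 3 reads per cow. Named were the 5 transcripts, the 5 genes most like each, the genes with at least 20 reads standing highest above the next cow in MNEB2, and the marker genes with an identifier. The members and lists were chosen with earlier results of these data known. Names came from a table of the study with 413 names, whose other columns, the authors' own comparisons, were not used. The script was tested on simulated data. Each sample was 1 cow, so the spread is that between cows.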

Additional observations from a re-analysis of the deposited data

Results flagged for a closer look

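In groups of 5 or 6 cows, the gap between the most extreme cow and its neighbour was divided by the range of the group and held against Dixon's 95% critical value, 0.710 for 5 cows and 0.625 for 6. Chance passes that limit in about 1 in 20 groups of normally distributed values, and the distribution of these CPM was not checked. Of 35 groups looked at, over the 5 transcripts and the marker genes, 6 passed. In MNEB the highest cow was MNEB2 for WFDC2 (0.873), TMEM45A (0.958) and HBD (0.980), which are 3 of the 9 groups of the 5 transcripts that could be looked at. These transcripts were picked for being uneven over these cows, so their gaps restate that choice and nothing is read from the 1 in 20 rate for them. The cause was not tested. Among the markers, RNASE1 passed in MNEB with MNEB1 highest (0.840), ATP4A in SNEB with SNEB4 highest (0.844), and TIMD4 in SNEB with SNEB3 highest (0.637).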

How the results depend on the processing

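Shares, fold changes and counts were recomputed with other scalings, filters, tools and lanes and without each cow. The 76 called genes became 290 with DESeq2 and 34 on flow cells B and C only, and ranged from 40 to 125 when 1 cow was left out. The 1 called marker became 5 with DESeq2 and 1 to 3 with 1 cow left out. Without 1 cow, the fold changes (log2) ranged from -2.65 to -0.16 for WFDC2, -2.53 to -0.033 for TMEM45A, -4.51 to -0.13 for HBD and -4.77 to -3.56 for LCN1, each upper end but that of LCN1 being without MNEB2. The fitted fold change of PRSS3 is not given, since with all SNEB cows at 0 it depends on the prior count. The share of the highest cow ranged from 56.3% to 99.5% for PRSS3, 54.0% to 94.8% for LCN1, 26.9% to 73.6% for WFDC2, 15.6% to 70.2% for TMEM45A and 21.1% to 91.8% for HBD. Cows with at least 5 reads ranged from 1 to 2 for PRSS3, LCN1 and HBD. With at least 1 read, LCN1 was in 4 cows and HBD in 10. HBD was in 1 cow at 10 reads, with 1 lane per cow, or thinned to the smallest total. Of the 5 genes most like each transcript, rank correlation kept 0 for PRSS3, LCN1, TMEM45A and HBD and 2 for WFDC2, and a prior count of 0.5 kept 3 for PRSS3 and HBD. Same-numbered cows shared flow cells, but the labels give the number no meaning and not all such cows deviated together (correlations between -0.0439 and 0.323), so the block was not used in the main comparison. With the replicate number as a replicate block, edgeR called 83 genes (0.596%), PRSS3 among them, and 1 marker. The adjusted p of PRSS3 was 0.0576 in that edgeR fit, against 0.282 without the block and at most 0.456 over the alternatives. PRSS3 was chosen on this contrast, so these p-values are a description and nothing is read from them. The fold changes with the block were -3.78 for LCN1, -0.65 for WFDC2, -0.99 for TMEM45A and -2.44 for HBD. Low counts limit LCN1, and HBD outside MNEB2.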
